A study of Homo sapiens with 14 samples.

Results

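The genes described here are 10 that build or mark epithelial cell contacts and the simple epithelial cytoskeleton. They are the cadherins CDH1 and CDH2, the adhesion molecule EPCAM, the keratins KRT8, KRT18 and KRT19, and the tight junction genes CLDN1, CLDN6, OCLN and TJP1. Every array probe set annotated to 1 of these genes was taken, which gave 19 of the 54675 probe sets. Expression was measured on 14 Affymetrix arrays of HEK293 cells, a line derived from human embryonic kidney, as 1 GCRMA value per probe set on the log2 scale. Values on this array have a floor near 2, and a probe set was tested when it reached 5 on at least 3 of the 14 arrays. That left 12 member probe sets of 8 genes, among 19816 probe sets of 10349 genes in all.

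The arrays fell into 4 groups, compared within each tag. The HOXD9 lines carried an HA-tagged HOXD9 vector and comprised a mixed population with 3 clones, named a, b and c (n = 4). Their controls carried the HA tag vector alone (n = 3). The HOXD13 lines carried a V5-tagged HOXD13 vector and were again 1 mix and 3 clones of the same names (n = 4), and their controls carried the V5 tag vector alone (n = 3). All cells had been transfected and placed under G418, which only cells holding the plasmid's resistance gene survive, and were grown in RPMI medium with serum. Where 4 values of lines are given, they stand in the order mix, clone a, clone b, clone c. The clones were picked out of the mixed population of the same HOX gene, so the 4 lines of a HOX gene are not independent transfections. The vector arrays are called biological replicates, but nothing says how their cultures were kept apart. The p-values therefore set a difference only against the scatter of these samples, pooled over lines and vector arrays, and some of that scatter may be technical. The promoter that drives the HOX insert is not given in the sources used here. The sorted values of arrays nearly coincide within a tag but not between tags (upper quartile 6.27 for HA and 7.02 for V5), so the tags appear to have been normalized apart, which no label states, and levels are compared only within a tag.

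Epithelial cells hold together through cadherins, which bind across the cell border and are tied to actin by catenins, and through tight junctions, in which claudins and occludin span the membrane and ZO-1, the product of TJP1, anchors them inside. Keratins 8 and 18 pair into the filaments of simple epithelia, and desmosomes link such filaments from cell to cell. CDH1 encodes E-cadherin, the classical epithelial cadherin, and CDH2 encodes N-cadherin, which is common in neural and mesenchymal cells. A shift between these cadherins, with loss of junction proteins, is the usual readout of an epithelial to mesenchymal transition, and SNAI and ZEB factors are known to repress epithelial genes through the E-box CACCTG. HOXD9 and HOXD13 are posterior homeobox transcription factors. HEK293 cells came from kidney but also express neural genes.

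Each transgene was higher in its own lines on at least 1 probe set. HOXD9 probe set 205605_at averaged 6.99 ± 0.52 in HOXD9 lines and 2.73 ± 0.18 in HA vector cells, and HOXD13 probe set 207397_s_at averaged 12.43 ± 0.17 in HOXD13 lines and 6.93 ± 0.09 in V5 vector cells (SD, n = 4 and 3). The second HOXD9 probe set, 205604_at, averaged 4.40 ± 0.09 in HOXD9 lines and 4.22 ± 0.02 in HA vector cells (adjusted p = 0.653), so it did not show the insert. HOXD13 probe set 236681_at had 10.15, 10.23, 10.42 and 8.87 in the HOXD13 lines, against 8.93, 8.94 and 8.95 in V5 vector cells, so clone c was not above the vector on that probe set. On 207397_s_at clone c had 12.24, against 12.32, 12.55 and 12.59 in its sister lines. On 207398_at it had 8.26, against 8.39, 8.39 and 8.41 in its sisters and a mean of 3.31 in V5 vector cells. Clone c was thus far above the vector on both of these HOXD13 probe sets. Of 10 HEK293 markers, 6 (VIM, NEFL, INA, CDH2, KRT8 and KRT18) were at 5 or above in every group, while PAX2, LHX1, NES and NEFM were not. COL1A1 was the only 1 of 8 fibroblast markers at 5 or above, SFN the only 1 of 5 squamous epithelium markers on the array, and none of 4 leukocyte or 5 endothelium markers reached that value. The summed fibroblast markers ran from 21.97 to 24.78 in HOXD9 lines and from 23.89 to 23.99 in HA vector cells, and from 24.02 to 24.99 in HOXD13 lines and from 24.17 to 24.40 in V5 vector cells. Lines varied far more than vector arrays: the SD of a gene had a median of 0.27 in HOXD9 lines and 0.05 in HA vector cells, and 0.26 in HOXD13 lines and 0.05 in V5 vector cells. Genes more than 1 log2 unit from the mean of their own vector numbered 5, 619, 23 and 1439 in the HOXD9 lines. They numbered 344, 752, 1039 and 333 in the HOXD13 lines. In the ACTB control HOXD13 clone c stood apart from its sister lines, with a 3′ minus 5′ difference of 2.80, against 2.13 in the mix, 2.01 in clone a and 1.82 in clone b, and 2.19 to 2.26 in V5 vector cells. HOXD9 clone a had a difference of 1.70, against 2.26 in the mix, 2.35 in clone b, 2.10 in clone c and 2.29 to 2.37 in HA vector cells. HOXD13 clone b, whose difference is the lowest of its lines, stays in the results without clone c. Member results in HOXD13 lines are given with and without clone c, and the part of these differences in the results was not tested. Clone c was singled out after its values were seen, so adjusted p-values without it only describe the other lines. Leaving it out raised the share of all probe sets called in HOXD13 lines from 8.68% to 32.8%.

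Most of the 10 genes had a level well above the floor in HEK293 cells, and 2 did not. All 12 tested probe sets were at 5 or above on all 14 arrays. The 7 others lay between 2.12 and 3.03 on every array. They were both probe sets of KRT19, a keratin of simple and ductal epithelia, both of CLDN6, a claudin of embryonic epithelia, and 1 further probe set each of CDH1 (201130_s_at), CLDN1 (218182_s_at) and OCLN (235937_at). KRT19 (chr17:41523617-41528308) and CLDN6 (chr16:3014712-3018183, both on GRCh38.p14) therefore had no reading above 2.35 in any HOX line or vector culture. For CDH1, CLDN1 and OCLN the dim probe set stands beside a bright one of the same gene, so a low probe set alone does not show a silent gene.

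In HOXD13 lines the tight junction genes CLDN1 and OCLN fell, and no member rose past the test. CLDN1 fell by 0.67 on the log2 scale, and OCLN fell by 1.52 on probe set 231022_at and by 0.66 on probe set 209925_at, while its brightest probe set was not called. In all, 3 of 12 member probe sets were called at an adjusted p under 0.05 in limma, adjusted over all 19816 probe sets, and 8.68% of all tested probe sets were called in this comparison. The median over the 12 was -0.02, as it was over all tested probe sets. The count was 0 when any single V5 vector array was left out and 1 without the HOXD13 mix, clone a or clone b. In HOXD9 lines 0 of 12 were called, where 0.0303% of all probe sets were, and the smallest adjusted p was 0.189. At an unadjusted p under 0.05 there were 2 of 12 in HOXD9 lines, where 20.6% of all probe sets passed, and 5 of 12 in HOXD13 lines, where 25.1% did. The median over the 12 in HOXD9 lines was -0.06, against 0.04 over all tested probe sets. Array values come from whole cultures, so fewer cells with a transcript and less transcript per cell cannot be told apart.

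**Figure D1:**
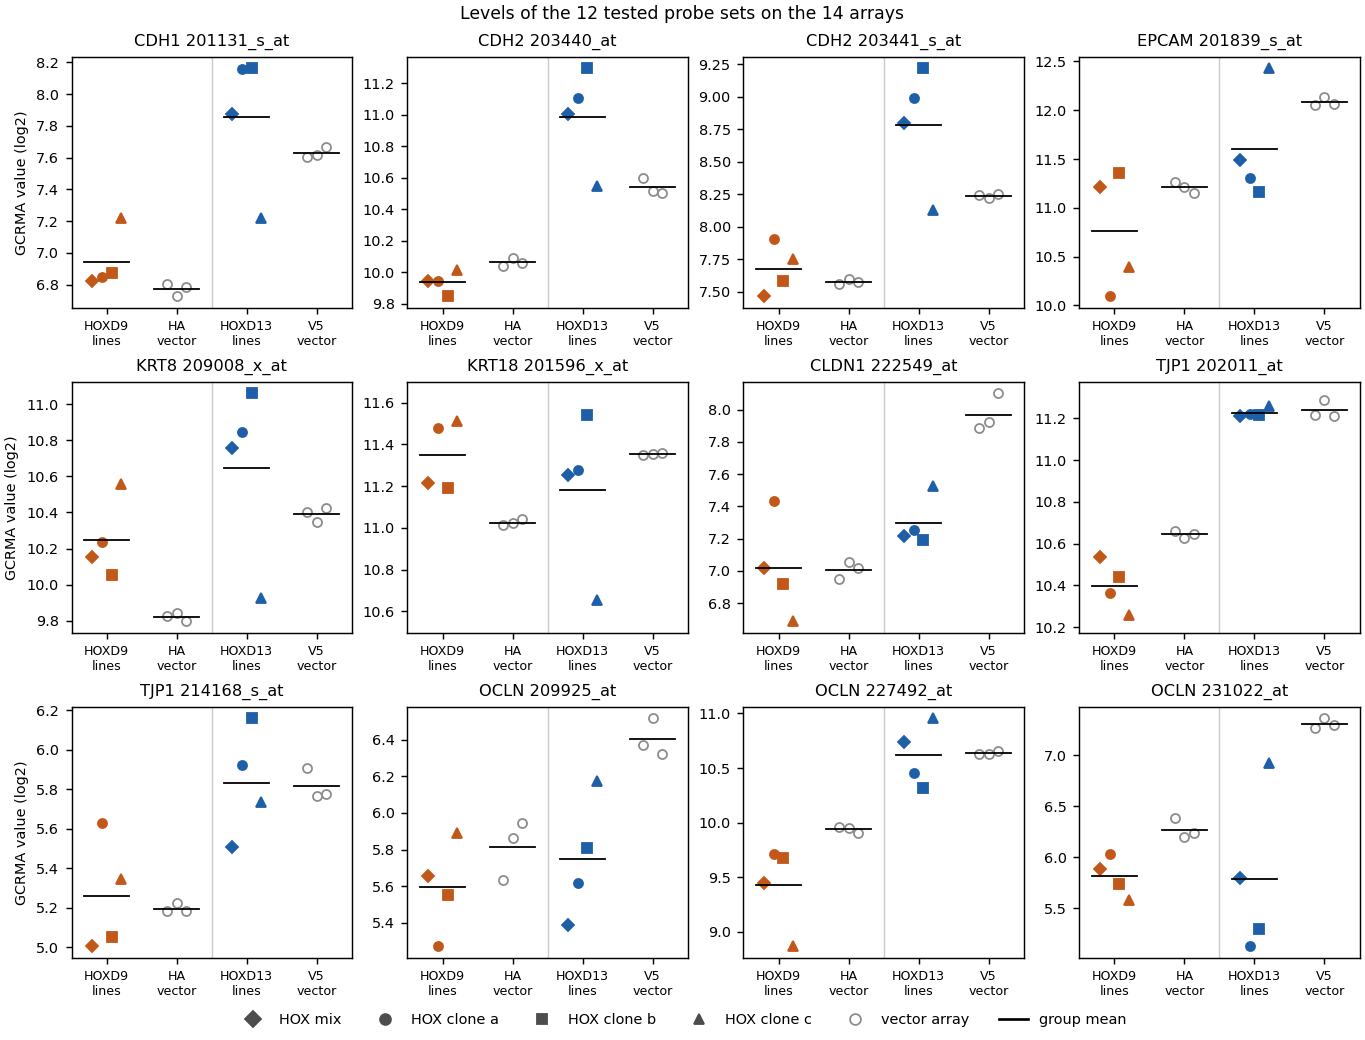
GCRMA value (log2, vertical axis) of the 12 tested member probe sets on the 14 arrays, by group; filled symbols are the HOX lines, open circles the vector arrays, and bars the group means. The 4 HOXD13 lines lie below all V5 vector arrays for CLDN1 and for OCLN 209925_at and 231022_at, and HOXD13 clone c lies apart from its sisters in most panels; HA and V5 values are not compared, since their distributions differ.

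CLDN1 encodes claudin-1, a strand-forming protein of the tight junction, at chr3:190305707-190322446 on GRCh38.p14. On probe set 222549_at it had 7.22, 7.25, 7.19 and 7.53 in the HOXD13 lines, against 7.88, 7.92 and 8.10 in V5 vector cells. All 4 lines lay below all 3 vector arrays, clone c included. The difference was -0.67 with a standard error of 0.15, a 1.59-fold lower level, and the adjusted p in limma was 0.0199. Without clone c it was -0.75 (adjusted p = 0.00246). The call ended in 8 of 27 alternative settings, among them the omission of any single V5 vector array, of the HOXD13 mix, of clone a or of clone b, and its adjusted p ran from 0.00124 to 0.107. In HOXD9 lines CLDN1 had 7.02, 7.44, 6.92 and 6.69, against 6.95, 7.05 and 7.02 in HA vector cells. The lines lay on both sides of the vector and averaged 0.01 from it (95% interval -0.33 to 0.34, adjusted p = 0.979). The effect of HOXD9 minus that of HOXD13 on CLDN1 was 0.68 (adjusted p = 0.0835), which misses the threshold, and it was 0.76 without HOXD13 clone c (adjusted p = 0.0246).

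OCLN encodes occludin, a membrane protein of the tight junction, at chr5:69492547-69558104, and its 3 tested probe sets did not move alike. On 231022_at it had 5.80, 5.13, 5.30 and 6.92 in the HOXD13 lines, against 7.26, 7.36 and 7.29 in V5 vector cells. The mix and clones a and b were far below the vector, and clone c was below it by 0.39. The difference over the 4 lines was -1.52 with a standard error of 0.32, a 2.87-fold lower level (adjusted p = 0.0125), and over the 3 lines without clone c it was -1.90 (adjusted p = 8.42e-06), a 3.73-fold lower level. On 209925_at it had 5.38, 5.62, 5.81 and 6.18 in the HOXD13 lines, against 6.37, 6.52 and 6.32 in V5 vector cells. Every line was again below every vector array, with clone c nearest to them, and the difference was -0.66 with a standard error of 0.18 (adjusted p = 0.0422), or -0.80 without clone c (adjusted p = 0.00208). On the brightest probe set, 227492_at, it had 10.74, 10.46, 10.32 and 10.96 in the HOXD13 lines, against 10.63, 10.63 and 10.66 in V5 vector cells. There the lines lay on both sides of the vector, and the difference was -0.02 (95% interval -0.44 to 0.39, adjusted p = 0.962), or -0.14 without clone c (adjusted p = 0.620). The fourth probe set, 235937_at, was near the floor, with 2.29, 2.34, 2.28 and 2.73 in the HOXD13 lines, against 3.03, 2.69 and 2.77 in V5 vector cells. The call on 231022_at ended in 6 of 25 alternative settings (adjusted p from 8.42e-06 to 0.0796) and that on 209925_at in 15 of 25 (adjusted p from 0.00119 to 0.166), with the omission of any single V5 vector array among both. Both calls also ended when only the arrays of the own tag set were fitted. On 231022_at the SD was 0.81 in the HOXD13 lines and 0.05 in V5 vector cells.

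In HOXD9 lines OCLN pointed down on all 3 probe sets without a call. On 227492_at it had 9.45, 9.72, 9.67 and 8.87 in the HOXD9 lines, against 9.96, 9.96 and 9.91 in HA vector cells. All 4 lines were below the vector, clone c the most, and the difference was -0.51 with a standard error of 0.19 (unadjusted p = 0.0195, adjusted p = 0.193 in limma). On 231022_at it had 5.89, 6.03, 5.74 and 5.58 in the HOXD9 lines, against 6.38, 6.19 and 6.24 in HA vector cells, a difference of -0.46 (adjusted p = 0.384). On 209925_at the groups overlapped, with a difference of -0.22 (adjusted p = 0.461). OCLN has 1 annotated pseudogene, and cross-hybridisation of its transcript was not tested.

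The sequences before the starts of these genes are shown because CLDN1 and OCLN were the members called and CLDN6 is a claudin at the floor in the same cells. Each is the 250 bases before the annotated start from RefSeq on GRCh38.p14, written 5′ to 3′ on the gene's strand, with capitals marking CACCTG on either strand. CLDN1 lies at chr3:190322447-190322696 on the minus strand, OCLN at chr5:69492297-69492546 on the plus strand and CLDN6 at chr16:3018184-3018433 on the minus strand.
CLDN1: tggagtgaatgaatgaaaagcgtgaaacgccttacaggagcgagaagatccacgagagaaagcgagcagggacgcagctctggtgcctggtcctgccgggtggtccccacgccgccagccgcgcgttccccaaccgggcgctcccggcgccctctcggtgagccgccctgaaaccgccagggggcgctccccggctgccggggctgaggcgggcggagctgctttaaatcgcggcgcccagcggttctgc
OCLN: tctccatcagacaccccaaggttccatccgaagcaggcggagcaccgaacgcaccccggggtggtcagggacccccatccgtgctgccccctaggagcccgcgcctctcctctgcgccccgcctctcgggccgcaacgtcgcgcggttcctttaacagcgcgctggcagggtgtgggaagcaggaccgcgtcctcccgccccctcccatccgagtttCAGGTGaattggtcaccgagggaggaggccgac
CLDN6: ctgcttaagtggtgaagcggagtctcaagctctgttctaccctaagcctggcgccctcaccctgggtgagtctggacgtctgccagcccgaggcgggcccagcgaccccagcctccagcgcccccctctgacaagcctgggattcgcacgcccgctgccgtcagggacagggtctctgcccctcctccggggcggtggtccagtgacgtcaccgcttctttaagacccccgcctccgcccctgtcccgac
The OCLN window held 1 CACCTG, on the minus strand 33 bases before the start, and the window before a second annotated OCLN start, chr5:69492540-69492789, held 1 more. The CLDN1 and CLDN6 windows held none, and none of these windows held CAATAAA, a posterior HOX motif. Of 35116 such windows in the RefSeq table, 17.5% held CACCTG and 3.66% held CAATAAA on either strand. The GC content was 68.8% for CLDN1, 68.8% for OCLN and 68% for CLDN6, against a median of 58% over all windows. Windows were given for 6 of the 10 genes, and the absence of these letters says nothing about any factor's binding elsewhere.

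TJP1, at chr15:29699367-29969049, encodes ZO-1, the scaffold that ties claudins and occludin to actin, and was called in neither comparison. On 202011_at it had 10.53, 10.36, 10.44 and 10.26 in the HOXD9 lines, against 10.66, 10.63 and 10.65 in HA vector cells. All 4 lines lay below the vector by a small step, -0.25 with a standard error of 0.09 (unadjusted p = 0.0166, adjusted p = 0.189 in limma). In HOXD13 lines it had 11.21, 11.22, 11.22 and 11.26, against 11.21, 11.29 and 11.21 in V5 vector cells. These values nearly coincide, with a difference of -0.01 (95% interval -0.21 to 0.18), or -0.02 without clone c. On the dim probe set 214168_s_at the groups overlapped in both comparisons, with differences of 0.06 in HOXD9 lines and 0.01 in HOXD13 lines, or 0.05 without clone c. Over the 12 tested member probe sets, the SD of the shift in the 8 HOX lines was lowest for TJP1 202011_at, at 0.15, and highest for OCLN 231022_at, at 0.79, followed by EPCAM at 0.55.

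Of the cadherins, CDH2, at chr18:27932879-28177130, was higher in 3 HOXD13 lines (mix, a, b), and clone c was level with the vector. On 203440_at it had 11.004, 11.11, 11.29 and 10.55 in the HOXD13 lines, against 10.60, 10.52 and 10.51 in V5 vector cells. Clone c alone overlapped the vector. Over all 4 lines the difference was 0.45 with a standard error of 0.14 (adjusted p = 0.0712), and without clone c it was 0.59 (adjusted p = 0.000474), a 1.51-fold higher level. On 203441_s_at it had 8.80, 8.99, 9.22 and 8.13 in the HOXD13 lines, against 8.25, 8.22 and 8.25 in V5 vector cells. The second probe set gave the same order of lines, with a difference of 0.54 over all 4 (adjusted p = 0.109) and of 0.76 without clone c (adjusted p = 0.000731). In HOXD9 lines CDH2 had 9.95, 9.95, 9.85 and 10.01 on 203440_at, against 10.04, 10.09 and 10.06 in HA vector cells. Every line was slightly below, by 0.12 on average (adjusted p = 0.595), and on 203441_s_at the difference was 0.10 with overlap (adjusted p = 0.770). The effect of HOXD9 minus that of HOXD13 on 203440_at was -0.57 (adjusted p = 0.112), and without HOXD13 clone c it was -0.72 (adjusted p = 0.00269).

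CDH1, at chr16:68737292-68835537, had 7.88, 8.16, 8.16 and 7.22 in the HOXD13 lines on 201131_s_at, against 7.60, 7.62 and 7.67 in V5 vector cells. The mix and clones a and b were above the vector and clone c below it, and the difference over all 4 was 0.22 (95% interval -0.19 to 0.64, adjusted p = 0.514). Without clone c it was 0.44 with a standard error of 0.12 (adjusted p = 0.0137), so that in those 3 lines CDH1 and CDH2 were higher together. In HOXD9 lines CDH1 had 6.82, 6.85, 6.87 and 7.22, against 6.81, 6.73 and 6.78 in HA vector cells. Clone c was the high line, and the difference was 0.17 (95% interval -0.25 to 0.59, adjusted p = 0.595).

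EPCAM, a surface glycoprotein of epithelial cells at chr2:47369311-47387020, varied widely between lines of the same HOX gene. It had 10.09 in HOXD9 clone a and 10.39 in clone c, with 11.21 in the mix and 11.36 in clone b, against 11.26, 11.21 and 11.16 in HA vector cells. Clone a was at a shift of -1.12 and clone c at -0.82 from the vector mean, while the mix and clone b were not below it. The difference over the 4 lines was -0.45 (95% interval -1.13 to 0.24, adjusted p = 0.399), and none of 27 alternative settings called it. Its value ran from -0.64 to 0.07 over those settings, the highest without clones a and c. In HOXD13 lines it had 11.49, 11.31, 11.16 and 12.43, against 12.05, 12.13 and 12.07 in V5 vector cells. The mix and clones a and b were below the vector and clone c above it, with a difference of -0.49 over all 4 (adjusted p = 0.372) and of -0.76 without clone c (adjusted p = 0.0432), a 1.70-fold lower level.

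KRT8 and KRT18 encode the keratin pair of simple epithelia, and their RefSeq annotations on GRCh38.p14, chr12:52897191-52949860 for KRT8 and chr12:52948855-52952906 for KRT18, overlap. KRT8 had 10.15, 10.23, 10.05 and 10.56 in the HOXD9 lines, against 9.82, 9.84 and 9.80 in HA vector cells. KRT18 had 11.21, 11.48, 11.19 and 11.51 in the same lines, against 11.01, 11.02 and 11.04 in HA vector cells. Both keratins were above every vector array in every HOXD9 line, by 0.43 for KRT8 (95% interval -0.04 to 0.89, adjusted p = 0.266) and by 0.32 for KRT18 (95% interval -0.04 to 0.69, adjusted p = 0.280), and neither was called. Over all probe sets, the 4 HOXD9 lines lay on 1 side of the 3 HA vector arrays in 32.1%, and of the 12 member probe sets 3 lay above and 4 below. In HOXD13 lines KRT8 had 10.76, 10.84, 11.06 and 9.92, against 10.40, 10.35 and 10.43 in V5 vector cells. Clone c was again on the other side of the vector, so the difference was 0.25 over all 4 (adjusted p = 0.502) and 0.50 without it (adjusted p = 0.00967). KRT18 had 11.25, 11.28, 11.54 and 10.66 in the same lines, against 11.35, 11.35 and 11.36 in V5 vector cells, with differences of -0.17 (adjusted p = 0.577) and, without clone c, of 0.00 (adjusted p = 0.983). RefSeq lists 52 pseudogene symbols of KRT8 and 68 of KRT18, and both probe sets carry the suffix of sets whose probes can match other transcripts, so their values may include signal from related sequences.

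**Figure D2:**
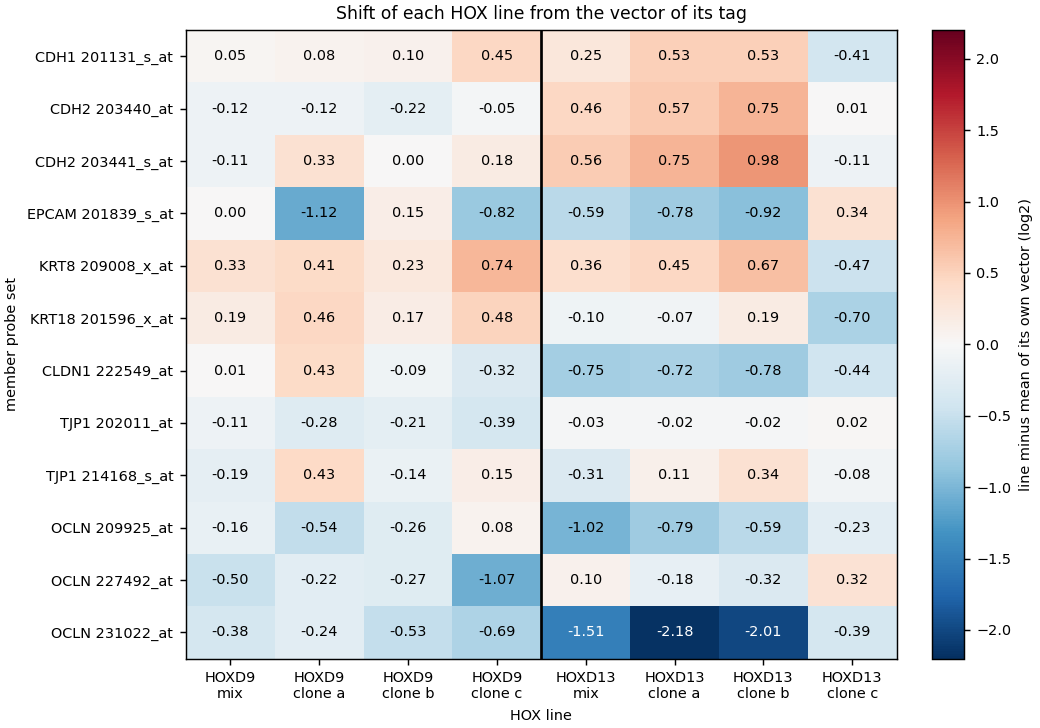
Shift of each HOX line from the mean of the vector arrays of its own tag (log2, colour and number) for the 12 tested member probe sets, with HOXD9 lines left of HOXD13 lines. The HOXD13 mix and clones a and b share the sign of the shift for CDH1, CDH2, EPCAM, KRT8, CLDN1 and OCLN 231022_at, while clone c is on the other side of the vector or nearer to it; EPCAM is low in HOXD9 clones a and c only.

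Many of these values thus depended on HOXD13 clone c. It lay above its 3 sisters on 6 of the 12 member probe sets, below them on 5 and among them on 1, and on 8 it was on the opposite side of the vector mean from the mean of the other 3. Among those 8 are KRT18 and TJP1 202011_at and 214168_s_at, where the other 3 averaged only 0.004, -0.02 and 0.05 from the vector. The place of clone c was not counted over all probe sets, so it is not read as a trait of these genes. Without clone c 8 of 12 member probe sets were called, 4 higher (CDH1, KRT8 and both of CDH2) and 4 lower (EPCAM, CLDN1 and OCLN 209925_at and 231022_at), belonging to 6 genes. That count has to be read against 32.8% of all 19816 probe sets called in the same fit. Over all 4 HOXD13 lines 3 member probe sets had every line beyond every vector array, all below, against 26.7% of all probe sets. No member differed between the HOX genes at the threshold: the difference of effects was called for 0 of 12, while 6.56% of all probe sets were called. At an unadjusted p under 0.05 in limma there were 3 of 12, against 23.1% of all probe sets. Without HOXD13 clone c it was called for 4 of 12, both CDH2 probe sets (-0.72 and -0.66), CLDN1 (0.76) and OCLN 231022_at (1.44), against 18.6% of all probe sets.

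**Figure D3:**
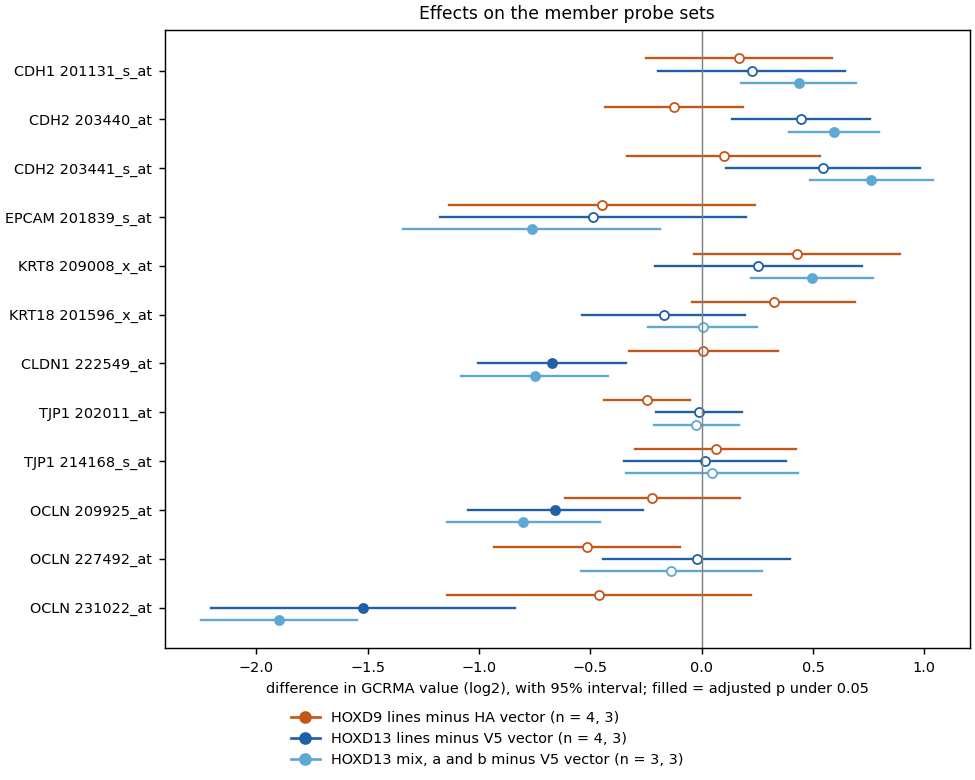
Difference between HOX lines and the vector of the same tag (log2, horizontal axis) with its 95% interval for the 12 tested member probe sets, for HOXD9 lines, HOXD13 lines and HOXD13 lines without clone c; filled points have an adjusted p under 0.05 in limma. The HOXD9 points are all open, 3 HOXD13 points are filled, and 8 are filled without clone c.

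Across the 14 arrays the shifts of the members from their own vector formed a pattern that is given here as a description, since the arrays share vectors and parent populations. CDH1 and KRT8 varied together (Pearson r = 0.913), and both varied against EPCAM (r = -0.777 for CDH1 and -0.836 for KRT8). CDH2 and CLDN1 varied in opposite directions (r = -0.831), and TJP1 and OCLN, read by their brightest probe sets, varied together (r = 0.798). The genes whose shifts were most like those of EPCAM were XPOT (r = 0.981), SPAG16 (0.978) and CHMP2B (0.976). For CDH1 the nearest was CANT1 (0.985), for CDH2 SIPA1L2 (0.979), for KRT8 SENP3 (0.996), for KRT18 FAAP20 (0.991) and for TJP1 KPNA3 (0.976). The likeness of KPNA3 to TJP1 was 0.980 within the HA arrays and 0.590 within the V5 arrays. For CLDN1 they were GOLM1 (0.982), SMIM19 (0.969) and ORC5 (0.964), and for OCLN DENR (0.984), RHOQ (0.984) and PKN2 (0.981), each over 14 arrays.

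The other genes of junctions, keratin filaments and the epithelial state were read from 8 lists of 160 genes, of which 146 were on the array and 71 were tested, each by its brightest probe set. In HOXD13 lines 4 of 71 were called, 1 higher and 3 lower, against 9.49% of all genes. In HOXD9 lines 0 of 71 were called, against 0.00966% of all genes, with 9 higher and 14 lower at an unadjusted p under 0.05 in limma, which 23% of all genes passed. Without HOXD13 clone c 20 of 71 were called for HOXD13, 12 higher and 8 lower, against 34.6% of all genes.

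NECTIN4, an adhesion molecule of the adherens junction, had 4.43, 4.74, 4.30 and 4.70 in the HOXD13 lines, against 5.67, 5.65 and 5.79 in V5 vector cells. All 4 lines were below the vector and below the value that the filter asks for, and the difference was -1.16 with a standard error of 0.12 (adjusted p = 0.000374). In HOXD9 lines NECTIN4 had 5.47, 5.33, 5.48 and 5.27, against 5.06, 4.97 and 5.04 in HA vector cells, a difference of 0.37 (adjusted p = 0.178). The 2 effects differed by 1.52 (adjusted p = 0.00112). JAM2, a junctional adhesion molecule of the immunoglobulin family, had 5.88, 5.96, 5.94 and 6.33 in the HOXD13 lines, against 6.63, 6.74 and 7.12 in V5 vector cells. It was lower in every line, with a difference of -0.80 and a standard error of 0.15 (adjusted p = 0.00900), and its second probe set gave -0.72 (adjusted p = 0.0237). In HOXD9 lines JAM2 had 6.66, 7.05, 6.59 and 6.79, against 6.33, 6.49 and 6.36 in HA vector cells, a difference of 0.38 (adjusted p = 0.206), and the effects differed by 1.18 (adjusted p = 0.00991). On the second probe set, 229127_at, the HOXD9 difference was 0.0024 (adjusted p = 0.993), and the effects differed by 0.72 (adjusted p = 0.0979), which misses the threshold. The JAM2 call ended without V5 vector array 3 (adjusted p = 0.0605) and with array weights (adjusted p = 0.0502). CTNNA1 encodes alpha-catenin, which links cadherins to actin, and had 11.19, 11.11, 11.24 and 11.18 in the HOXD13 lines, against 11.57, 11.54 and 11.59 in V5 vector cells. The lines lay close together below the vector, with a difference of -0.39 (adjusted p = 0.0444), and its 4 probe sets gave -0.37 to -0.66. KLF4, an epithelial transcription factor, had 10.06, 10.12, 10.14 and 9.34 in the HOXD13 lines, against 9.05, 9.26 and 9.30 in V5 vector cells. It was higher in every line but by 0.14 only in clone c, with a difference of 0.71 (adjusted p = 0.0314), and its second probe set gave 0.68 (adjusted p = 0.130). Without clone c the difference was -1.21 for NECTIN4, -0.90 for JAM2, -0.39 for CTNNA1 and 0.91 for KLF4, each still called. The CTNNA1 and KLF4 calls ended in 12 and 10 of 27 alternative settings, with any single V5 vector array left out among them.

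**Figure D4:**
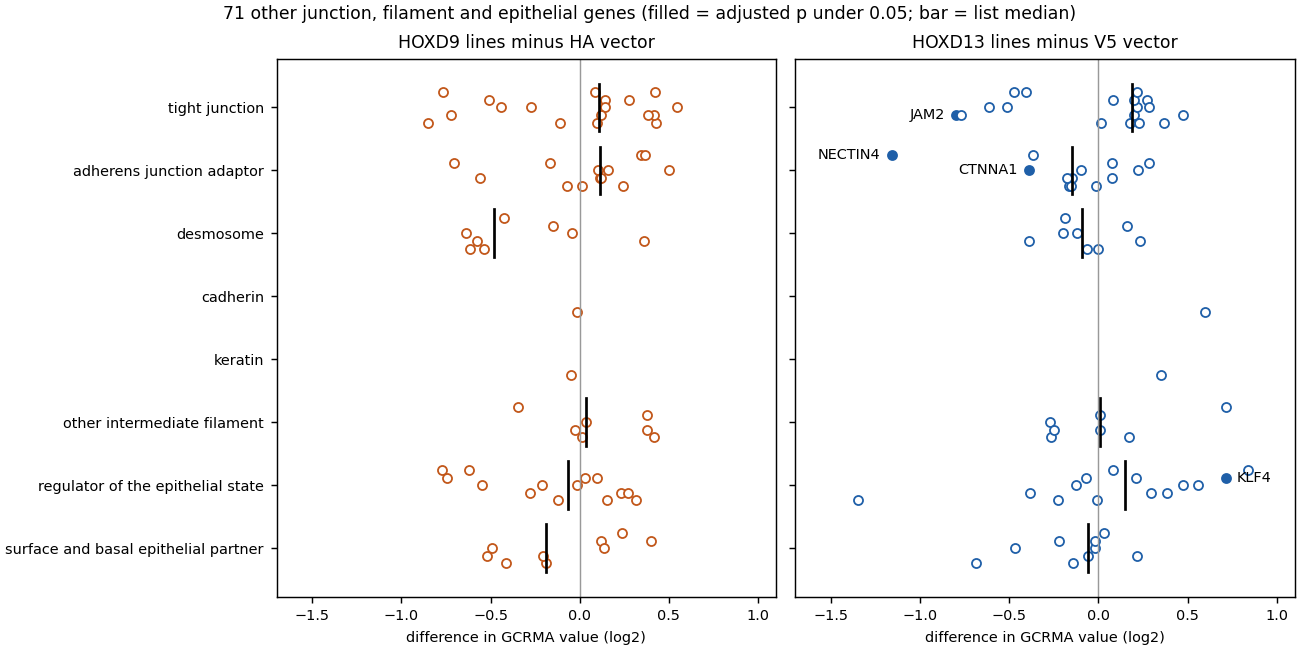
Difference between HOX lines and the vector of the same tag (log2, horizontal axis) for the 71 tested genes of 8 lists, with HOXD9 lines left and HOXD13 lines right; filled points have an adjusted p under 0.05 in limma and bars are list medians. Only NECTIN4, JAM2, CTNNA1 and KLF4 are filled, all in HOXD13 lines, and the desmosome median in HOXD9 lines is -0.48.

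By list, the tight junction genes had a median of 0.11 in HOXD9 lines and 0.19 in HOXD13 lines over 18 tested. In HOXD13 lines 1 of 18 was called, the lower JAM2, and without clone c 8 of 18 were called, 4 higher and 4 lower, with a median of 0.24. The adherens junction adaptors had medians of 0.11 in HOXD9 lines and -0.15 in HOXD13 lines over 13 tested, with 2 called in HOXD13 lines, the lower NECTIN4 and CTNNA1, and the same 2 without clone c. These counts stand beside 9.49% of all genes called with clone c and 34.6% without it. The 8 desmosome genes had a median of -0.48 in HOXD9 lines and -0.09 in HOXD13 lines (-0.12 without clone c). None of them was called in HOXD9 lines or over the 4 HOXD13 lines, but 5 of 8 passed an unadjusted p of 0.05 in HOXD9 lines, where 23% of all genes did. These 5 were all lower and are named here after their values were seen: the desmocollins DSC2 (-0.62) and DSC3 (-0.58), the desmoglein DSG2 (-0.64), the plakophilin PKP2 (-0.54) and PERP (-0.42), with adjusted p-values of 0.176 to 0.196. Their size depended on the setting. Over 27 alternative settings the HOXD9 difference ran from -0.78 to -0.26 for DSG2 and from -0.51 to -0.21 for PERP. It ran from -0.72 to -0.40 for DSC2, from -0.68 to -0.37 for DSC3 and from -0.65 to -0.28 for PKP2, and no setting called any of them. The other desmosome genes did not pass, and the highest of the 8 was above the vector by 0.36. The 7 other intermediate filament genes had medians of 0.04 in HOXD9 lines and 0.01 in HOXD13 lines (0.12 without clone c). The 14 regulators of the epithelial state had medians of -0.07 in HOXD9 lines and 0.15 in HOXD13 lines (0.08 without clone c), and the 9 surface and basal epithelial genes -0.19 in HOXD9 lines and -0.06 in HOXD13 lines (-0.13 without clone c). Of 19 other cadherins on the array only CDH11 was tested, and of 16 other keratins only KRT10. All genes had a median of 0.08 in HOXD9 lines and -0.03 in HOXD13 lines.

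The 20 listed genes called over the HOXD13 mix and clones a and b, where 34.6% of all genes were called, include the 4 above, and the other 16 were chosen for naming after their values were seen. None of the 16 was called over all 4 lines. Tight junction genes went both ways. MARVELD3, a relative of occludin, was higher by 0.70 (adjusted p = 0.00605), as were the adhesion molecule gene JAM3 (0.43), the claudin gene CLDN3 (0.43) and the polarity gene PARD3 (0.38). The scaffold genes PATJ (-1.09), MPDZ (-0.94) and MAGI3 (-0.69) were lower. Of desmosome and filament genes, DSP, which encodes desmoplakin, was higher by 0.26, KRT10 by 0.48, and the neuronal filament genes NEFL by 1 on the log2 scale and INA by 0.30. Of the regulators, SNAI2, which encodes the repressor Slug, was higher by 0.84 (adjusted p = 0.00475) and FOXC2 by 0.60, while ESRP1, an epithelial splicing regulator, fell by 1.75 (adjusted p = 0.000966). CD24, a surface glycoprotein gene, was lower by 0.96. The last of the 20 is the cadherin gene CDH11, which reached the value of 5 on 4 arrays, only 1 of them outside these 3 lines, so it was tested because it is high there and its call supports nothing. Clone c had shifts of -0.12 for ESRP1, -0.14 for NEFL, -0.28 for SNAI2 and -0.02 for KRT10. VIM, the mesenchymal filament gene, had a difference of -0.25 over all 4 lines (adjusted p = 0.141) and of -0.18 without clone c (adjusted p = 0.124). In the HOXD9 comparison 2 genes of the lists were called once HOXD13 clone c left the shared estimate of the spread, the tight junction scaffold gene MAGI3 (-0.77, adjusted p = 0.0369) and the integrin gene ITGA6 (-0.42, adjusted p = 0.0468), against 4.44% of all genes in that fit.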

How the data were processed

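Total RNA of 14 HEK293 cultures was hybridised to Affymetrix arrays. The deposited values are on the log2 scale and were made by the authors with GCRMA, per the submitters' processing notes. Its version, like the genome build, is not given in the sources used here. The sorted values of the arrays of each tag nearly coincide, as after quantile normalization of HA and V5 arrays as separate sets. Probe sets were named from the platform annotation of 2016: 41097 had 1 gene, 1801 several and 11777 none, and 41043 matched RefSeq on GRCh38.p14. After 62 control sets were removed, those at 5 or more on at least 3 of 14 arrays were tested with limma 3.58.1 (lmFit, eBayes) in R 4.3.3, with 4 group means, a two-sided test and Benjamini-Hochberg adjustment over all of them. The model had 10 residual degrees of freedom, and the number of arrays limits its precision. Lines and vector arrays share its estimate of the spread of a probe set, although the lines varied more. The fit was tested on simulated data, but the settings and outcome are not reported here, so no result rests on that test. Members and lists were chosen with earlier results of these data known. The rule for naming took all members, up to 3 called genes per list and contrast with the largest difference, and up to 3 genes most like each member. Outside that rule, VIM, the desmosome genes that passed only without adjustment and the genes called only without HOXD13 clone c were also named. These desmosome genes and the genes called only without clone c were chosen after their values were seen. Alternatives changed the filter, scaling, prior, weights, gene reading, block and arrays. Figures used matplotlib 3.10.9.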

Additional observations from a re-analysis of the deposited data

Results flagged for a closer look

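In 4 of 32 sets of HOX lines examined, the gap between the outermost line and its neighbour, divided by the whole range, exceeded Dixon's critical value for 4 samples, which chance passes in about 1 of 20 sets. In HOXD9 lines, clone c was the highest for CDH1 201131_s_at, with a ratio of 0.873. In HOXD13 lines, clone c was the highest for TJP1 202011_at, with a ratio of 0.833, in a group whose SD is 0.02. HOXD13 clone c was also the highest for JAM2 219213_at, with a ratio of 0.839, and the lowest for KLF4 221841_s_at, with a ratio of 0.901.

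Among the named genes, the effects of the HOX genes, each against its own vector, differed at the threshold for NECTIN4 and JAM2. Over all genes, each read by its brightest probe set, they differed for 820 of 10349. NECTIN4 and JAM2 had been named because they were called in HOXD13 lines, so this difference is not a separate result. For NECTIN4 223540_at the HOXD9 effect minus the HOXD13 effect was 1.52 (adjusted p = 0.00112 in limma), and for JAM2 219213_at it was 1.18 (adjusted p = 0.00991), while the second JAM2 probe set gave 0.72 (adjusted p = 0.0979). For CDH2 203440_at every HOXD9 line was below its vector and every HOXD13 line above the mean of its vector. HOXD13 clone c was above that mean by only 0.005 and lay within the V5 vector range of 10.51 to 10.60. The difference of effects on 203440_at was -0.57, with an adjusted p of 0.112 in limma, which misses the threshold. The second CDH2 probe set, 203441_s_at, did not show this opposition. There the HOXD9 difference was 0.10 with overlap, and HOXD13 clone c was at -0.11 from the mean of its vector.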

How the results depend on the processing

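Of 3114 values recomputed under 28 settings, 2878 kept their direction and their side of the threshold, 55 lost a call, 106 gained one and 75 changed sign, and none of those that changed sign was called before or after. The member count for HOXD9 lines stayed at 0 in every setting. The 3 member probe sets called in HOXD13 lines became 6 with the ACTB difference as a covariate, 1 with the arrays of the own tag set alone, 0 without a filter and 0 without both mixed populations. They became 7 without the 3 arrays of deviating ACTB difference (HOXD9 clone a and HOXD13 clones b and c), and 0 to 8 when single arrays were left out. The 4 listed genes called in HOXD13 lines became 14 with the covariate, 7 with array weights, 2 without a filter and 2 without both mixed populations. They became 13 without HOXD9 clones a and c, 21 without the 3 deviating arrays, and 1 to 20 when single arrays were left out. The 1 member gene called by its brightest probe set became 2 by the mean of its probe sets, with OCLN at -0.73 (adjusted p = 0.0222 in limma). The listed genes called in HOXD9 lines ran from 0 to 2 when single arrays were left out. The 0 member probe sets with a called difference of effects, of which 3 had an unadjusted p under 0.05, became 3 with the covariate, 1 without HOXD9 clones a and c, 5 without the 3 deviating arrays and 0 to 4 when single arrays were left out. Over all 19816 probe sets, the 1299 calls of that difference became 3149, 1382 and 3444 in the same settings, and 340 to 3688 when single arrays were left out. Leaving out HOXD9 clones a and c or the 3 deviating arrays was chosen after seeing the data. Each single array was left out by plan, but HOXD13 clone c was singled out among them after its values were seen. Over all 19816 probe sets, the 1721 HOXD13 calls became 4454 with the covariate, 5761 without the 3 deviating arrays, 3948 without HOXD9 clones a and c and 2898 with array weights. They became 1181 with the arrays of the own tag set alone, 495 without both mixed populations and 1112 of 54613 without a filter. When single arrays were left out, the HOXD13 calls ran from 371 to 6496, and the 6 HOXD9 calls became 787 without HOXD13 clone c. HOXD13 clone c enters the HOXD9 comparison only through the shared estimate of the spread. Why the HOXD13 counts moved was not tested. The number of arrays limits all of these counts.

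Lines and vectors share names across the tags (mix, a, b and c, and 1, 2 and 3). Same-named samples had correlations of deviations between -0.62 and 0.04 for lines and between -0.03 and 0.00 for vectors, so the names were not taken to pair samples. With a replicate block, the difference of effects was called for 0 member probe sets and for 146 of 19816 in all, against 1299 without it, and the JAM2 difference had an adjusted p of 0.0620.

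The following values changed sign. In HOXD9 lines without clones a and c, EPCAM was 0.074, CLDN1 -0.040, CDH2 203441_s_at -0.055, TJP1 214168_s_at -0.17, CTNNA1 -0.068, SNAI2 0.12, KRT10 0.048, INA -0.058, JAM3 -0.032, PARD3 -0.072 and CLDN3 -0.076. Without the 3 deviating arrays, CLDN1 was -0.13, TJP1 214168_s_at -0.062, KRT10 0.033 and INA -0.022 in HOXD9 lines, and TJP1 214168_s_at was -0.10 in HOXD13 lines. With the ACTB covariate, CDH2 203441_s_at was -0.11, TJP1 214168_s_at -0.053, KLF4 -0.0084, INA -0.097, CD24 0.028, JAM3 -0.016, PARD3 -0.068 and CLDN3 -0.078 in HOXD9 lines, and TJP1 214168_s_at was -0.0063 and DSC2 0.0041 in HOXD13 lines. Without both mixed populations, VIM was 0.010 in HOXD9 lines and DSC2 0.0039 in HOXD13 lines. By the mean of probe sets, KRT10 was 0.040 in HOXD9 lines, and TJP1 was 0.00090 and DSC2 0.0083 in HOXD13 lines. When single arrays were left out, the HOXD9 values ran from -0.13 to 0.12 for CLDN1, -0.062 to 0.15 for TJP1 214168_s_at, -0.074 to 0.022 for CDH11, -0.085 to 0.033 for KRT10, -0.074 to 0.010 for VIM and -0.022 to 0.052 for INA. The HOXD13 values ran from -0.29 to 0.0039 for KRT18, -0.026 to 0.012 for TJP1 202011_at, -0.095 to 0.12 for TJP1 214168_s_at, -0.14 to 0.077 for OCLN 227492_at and -0.053 to 0.046 for DSC2. The difference of effects ran from -0.27 to 0.047 for CDH1, -0.16 to 0.32 for EPCAM, -0.067 to 0.31 for KRT8, -0.076 to 0.16 for TJP1 214168_s_at, -0.37 to 0.0068 for FOXC2, -0.33 to 0.00081 for CLDN3 and -0.16 to 0.45 for PATJ. Without both mixed populations it was -0.15 for EPCAM, 0.026 for CLDN3 and -0.18 for PATJ. It was -0.047 for TJP1 214168_s_at with the covariate and -0.18 without HOXD9 clones a and c, and by the mean of probe sets it was 0.34 for OCLN, 0.0077 for ITGA6 and -0.32 for PATJ.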
